A study of Mus musculus with 4 samples.

Results

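The retinoblastoma pocket proteins (Rb1, Rbl1 and Rbl2) and the E2F transcription factors E2f1 to E2f7 were examined in breast cancer cells of mice that carry or lack Pak1, a p21-activated kinase. All probes of the Agilent mouse array whose gene name was 1 of these 10 genes were taken, which gave 13 of the 39429 non-control probes and all 10 genes. The tumour-derived cells came from MMTV-Neu mice, whose Neu (Her2) transgene runs from a viral promoter active in mammary epithelium. The 4 samples formed 2 groups of 2, from Pak1-/- and Pak1+/+ mice, and all of them carried Neu, were starved of serum for 3 h and then received EGF for 15 min. By the design, different tumours gave the samples of a group, while the methods speak of cell lines, so that the p-values measure the spread between these samples and part of it may be technical. No ages or background strains were given.

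E2Fs bind DNA mostly as dimers with a DP protein and control the genes needed for DNA synthesis and mitosis. Pocket proteins bind E2Fs and hold these genes off in resting and early G1 cells, until cyclin D and cyclin E kinases phosphorylate them. RB prefers the activator E2Fs (E2f1, E2f2 and E2f3), while p107 (Rbl1) and p130 (Rbl2) pair with the repressors E2f4 and E2f5 and join the MuvB proteins in the DREAM complex. E2f6, E2f7 and E2f8 repress without pocket proteins, and loss of RB function is a frequent route by which mammary tumours escape growth control.

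Several of these genes are themselves E2F targets, so their promoters were searched for the letters of E2F sites. RefSeq windows (build GRCm38.p6) of 250 bases before to 50 after a transcript start were at hand for 7 of the 10 genes, 9 windows in all. The strict E2F site, TTTCGCGC or TTTGGCGC on either strand, was present in the windows of Rbl1 and E2f2, or 2 of 9, against 0.813% of all 32851 windows. A relaxed core (TTCGCGC or TTGGCGC or TTCCCGC or TTGCCGC, which overlaps the strict site) was present in 4 of 9, in Rbl1, E2f2, E2f3 and E2f7, against 9.57% of all windows. The sequences printed here show these letters in capitals. The first 3 are the 120 bases before the start on the strand of the gene, at chr2:157204535-157204654 (minus strand) for Rbl1, chr10:110745319-110745438 (plus strand) for E2f7 and chr13:29986064-29986183 (minus strand) for E2f3. The last is bases 21 to 50 of the E2f2 transcript, at chr4:136172294-136172323 (plus strand).
Rbl1: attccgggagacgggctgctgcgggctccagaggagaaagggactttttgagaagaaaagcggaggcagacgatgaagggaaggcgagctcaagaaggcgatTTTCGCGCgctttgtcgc
E2f7: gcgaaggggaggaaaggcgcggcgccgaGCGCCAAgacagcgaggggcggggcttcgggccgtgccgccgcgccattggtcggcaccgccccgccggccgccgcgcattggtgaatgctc
E2f3: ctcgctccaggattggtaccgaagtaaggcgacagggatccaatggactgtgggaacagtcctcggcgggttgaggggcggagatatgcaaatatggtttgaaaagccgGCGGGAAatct
E2f2: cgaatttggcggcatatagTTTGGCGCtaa

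The capitals of Rbl1 lie 18 to 11 bases before the start, and those of E2f7 and E2f3 read the relaxed core on the opposite strand. E2f7 had 2 further relaxed matches, at -223 to -217 and -198 to -192. The E2f3 window also held TTGGCGC on the strand of the gene, 18 to 24 bases after the start. The windows of E2f6, Rbl2 and E2f1 held neither set of letters. The transcript start on which the E2f1 window is set lay 466 bases inside the gene, so that the window does not cover the upstream start of that gene. A match is only a run of letters, and no binding was measured on these arrays.

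The array data were of even quality. The median spot intensity was 322 to 331 over a local background of 39.0 to 42.0, and 62.2% to 70.4% of the probes were well above background on an array. Arrays of the same group correlated at 0.997 across the probes tested and arrays of different groups at 0.954 to 0.959, probes not being independent replicates. All 13 member probes were well above background on all 4 arrays, none was saturated, and all 13 passed the filter on dim probes. The 1 Pak1 probe gave log2 intensities of 12.21 and 12.25 in Pak1-/- cells and of 12.04 on both Pak1+/+ arrays, so it did not check the labels, and every direction here is given by the labels. The Pak1-/- arrays took slide positions 1 and 2 and the Pak1+/+ arrays positions 3 and 4, and position and genotype cannot be told apart. Of 7 mammary epithelial markers, all but Krt19 (3 arrays) were well above background on all 4 arrays. Of 6 fibroblast markers, Col1a1, Col1a2 and Pdgfra were so on all 4 arrays and Col3a1, Dcn and Lum on none.

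The members moved in both directions. By the brightest probe of each gene, 4 genes were lower in Pak1-/- cells (Rbl1, E2f4, E2f6 and E2f7), 2 were higher (Rb1 and E2f2) and 4 did not pass the threshold (Rbl2, E2f1, E2f3 and E2f5), at an adjusted p of 0.05 in limma. These 60% called stood beside 51% of the 22005 genes and unnamed transcripts tested the same way, with 28.2% of all lower and 22.8% higher, so the share of members called was near the background. By probe, 5 of 13 were lower and 2 higher, against 28.6% and 23.3% of all 27229 probes, or 51.9% called in all. The groups did not overlap for 9 of 10 members, against 77.5% of all genes. A change of at least 2-fold passed the threshold for Rb1 and Rbl1, or 2 of 10, against 12.6% of all genes. The median difference was -0.10 log2 over the members and -0.05 over all genes.

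**Figure D1:**
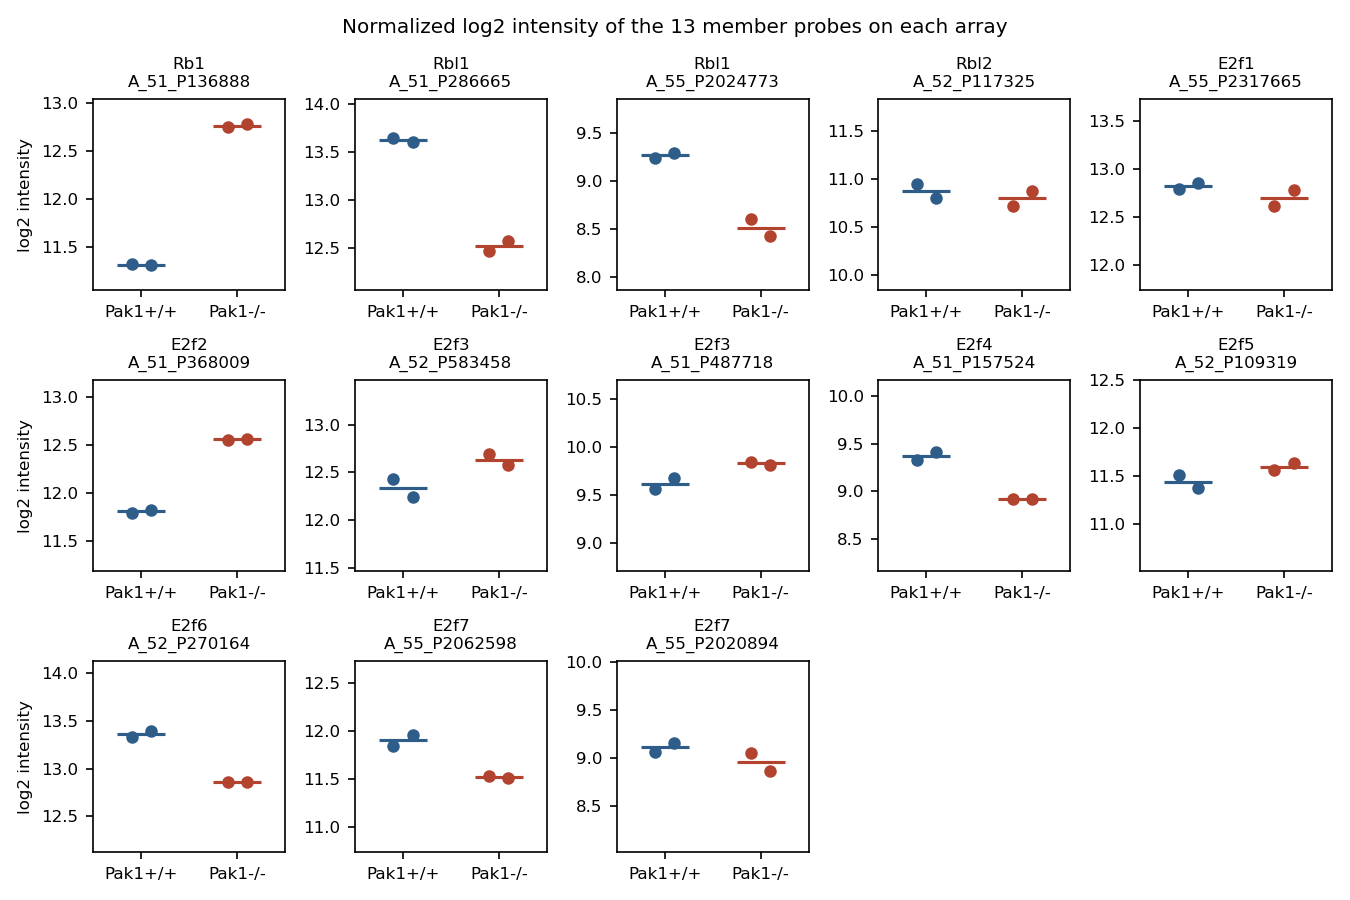
Normalized log2 intensity (vertical axis, a span of 2 log2 units in each panel) of the 13 member probes on each array, with Pak1+/+ in blue, Pak1-/- in red and lines at the group means (n = 2). Rb1 stands 1.45 higher and the brighter Rbl1 probe 1.11 lower in Pak1-/- cells, and the 2 groups of Rbl2 overlap.

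**Figure D2:**
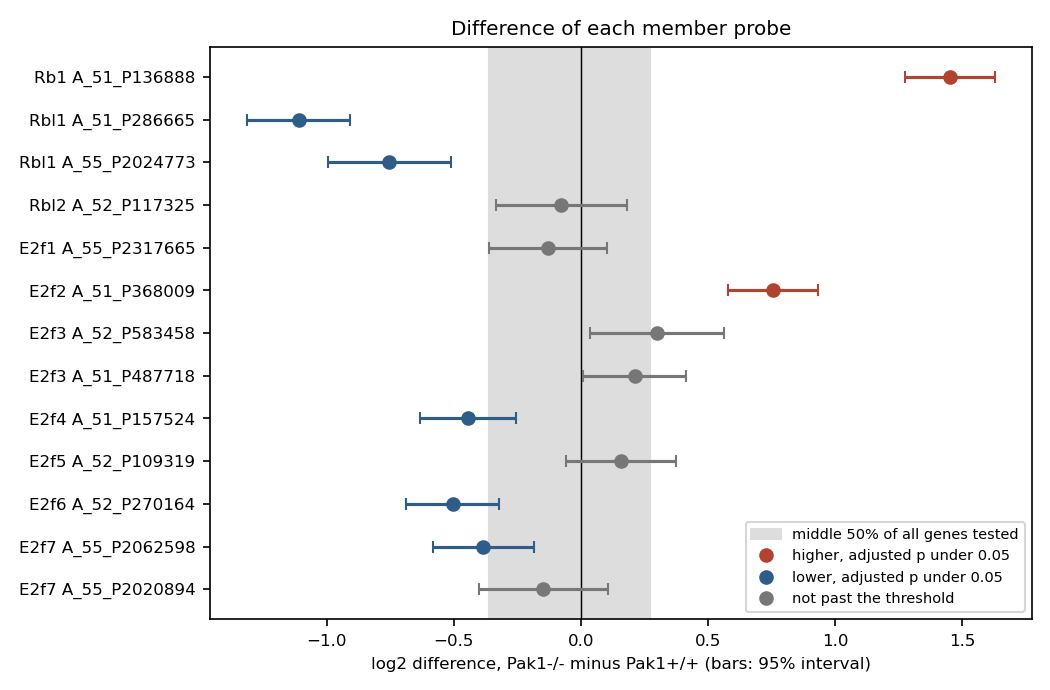
Log2 difference (Pak1-/- minus Pak1+/+) of each member probe with its 95% interval from limma. The grey band holds the middle 50% of all genes tested, and the intervals of Rb1, E2f2 and both Rbl1 probes lie outside it.

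Among the pocket proteins, Rb1 rose and Rbl1 fell. Rb1 encodes RB, the tumour suppressor that binds activator E2Fs. Its probe (A_51_P136888, mm9 chromosome 14, 73595408 to 73595467) read 12.75 and 12.78 in Pak1-/- cells and 11.32 and 11.31 in Pak1+/+ cells. Both Pak1-/- arrays were above both Pak1+/+ arrays, a log2 difference of 1.45 (SE 0.07, adjusted p = 0.00026), or 2.74-fold. Only 6.46% of the probes tested had a larger absolute difference. This probe was printed 10 times on each array, which gave a view of the technical spread. The 10 spots ranged from 12.50 to 12.88 and 12.50 to 12.93 on the Pak1-/- arrays and from 11.08 to 11.46 and 11.04 to 11.44 on the Pak1+/+ arrays. The lowest spot of any Pak1-/- array was thus brighter than the highest spot of any Pak1+/+ array. The SD over the spots of an array was 0.14 to 0.17 log2, about as large on each of the 4 arrays.

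The genes around Rb1 moved in both directions. Within 500 kb on either side of its probe, 10 other genes and unnamed transcripts were tested, of which 3 were higher, 3 were lower and 4 did not pass the threshold, with a median difference of 0.13 log2, beside 22.8% higher and 28.2% lower of all genes. The 3 nearest to the Rb1 probe were the higher ones. The neighbours named here were chosen after their values were seen. Itm2b, which encodes a membrane protein, rose by 1.91 (adjusted p = 0.00017). Lpar6, a lysophosphatidic acid receptor gene that sits within an intron of Rb1, rose by 0.53 (adjusted p = 0.019), and Rcbtb2 by 0.29 (adjusted p = 0.024). The lower ones lay farther out, but Gm9199 (probe at 73425993) only slightly farther than Itm2b (probe at 73762833), on the other side of Rb1. Med4, a Mediator subunit, fell by 0.35 (adjusted p = 0.039), Gm9199 by 0.59 (adjusted p = 0.0034) and A130078K24Rik by 0.89 (adjusted p = 0.0062).

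Rbl1 encodes p107, a pocket protein that accumulates in cycling cells and whose promoter held the strict E2F site printed above. The brighter of its probes (A_51_P286665, named for transcript variant 1, mm9 chromosome 2, 156972143 to 156972202) read 12.46 and 12.57 in Pak1-/- cells against 13.65 and 13.61 in Pak1+/+ cells. The difference was -1.11 (SE 0.08, adjusted p = 0.00072), or 2.16-fold. The other probe (A_55_P2024773, named for variant 2, chromosome 2, 157000761 to 157000820) read 8.61 and 8.42 against 9.24 and 9.29, a difference of -0.75 (SE 0.09, adjusted p = 0.0031). Both probes were lower on both Pak1-/- arrays, so that they gave the same direction at sites 28.6 kb apart. In these bulk samples, fewer cells that express a gene and less RNA per cell cannot be told apart.

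Rbl2, which encodes p130, the pocket protein of quiescent cells, read 10.72 and 10.88 in Pak1-/- cells and 10.95 and 10.80 in Pak1+/+ cells (A_52_P117325, mm9 chromosome 8, 93647120 to 93647179). The groups overlapped. The difference was -0.08, with a 95% interval of -0.33 to 0.18 (adjusted p = 0.54), which a change of 2-fold in either direction would exceed.

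Of the activator E2Fs, only E2f2 passed the threshold. E2f2 is an activator that drives entry into S phase. It read 12.56 and 12.57 in Pak1-/- cells and 11.79 and 11.82 in Pak1+/+ cells (A_51_P368009, mm9 chromosome 4, 135750562 to 135750621). The difference was 0.75 (SE 0.07, adjusted p = 0.0013), or 1.69-fold, and the arrays of each group lay within 0.03 of each other. Of the 29 genes and unnamed transcripts tested within 500 kb of E2f2, 16 were higher and 3 lower, with a median difference of 0.43 log2. Of all genes, 22.8% were higher and 28.2% lower. Around Rbl1, itself lower, 8 of 27 were higher and 7 lower. The counts were 8 and 8 of 35 around E2f4 and 1 and 0 of 3 around E2f7, both also lower. The part of chromosomal position in the result was not tested.

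E2f1, the activator best known for inducing both S phase and apoptosis, read 12.61 and 12.77 in Pak1-/- cells against 12.79 and 12.85 in Pak1+/+ cells (A_55_P2317665, mm9 chromosome 2, 154385798 to 154385857). The groups came within 0.02 of overlapping, and the difference of -0.13 had a 95% interval of -0.36 to 0.10 (adjusted p = 0.27). E2f3, an activator with a long form and a short form, had 2 probes. The brighter (A_52_P583458, mm9 chromosome 13, 29998480 to 29998539) read 12.69 and 12.58 against 12.43 and 12.24, a difference of 0.30 (95% interval 0.04 to 0.56, adjusted p = 0.061). The other (A_51_P487718) is split over 3387 bases of chromosome 13, 30005369 to 30008755, and read 9.84 and 9.82 against 9.56 and 9.68. Its difference was 0.21 (95% interval 0.01 to 0.41, adjusted p = 0.076). Both E2f3 probes were higher on both Pak1-/- arrays without passing the threshold, and with cyclic loess both passed it, at 0.38 (adjusted p = 0.030) and 0.31 (adjusted p = 0.026). The brighter one also passed when only probes well above background on all 4 arrays were tested (adjusted p = 0.048), and the mean over both probes did so at 0.26 (adjusted p = 0.037).

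Of the repressor E2Fs that work with p107 and p130, E2f4 fell and E2f5 did not pass the threshold. E2f4, the most abundant E2F of resting cells, read 8.92 and 8.92 in Pak1-/- cells against 9.33 and 9.41 in Pak1+/+ cells (A_51_P157524, mm9 chromosome 8, 107829156 to 107829215). The difference was -0.44 (SE 0.07, adjusted p = 0.0072), or 1.36-fold. E2f5 read 11.56 and 11.63 against 11.50 and 11.37 (A_52_P109319, mm9 chromosome 3, 14605676 to 14605735), and its difference of 0.16 had a 95% interval of -0.06 to 0.37 (adjusted p = 0.17). The groups of E2f5 did not overlap but lay within 0.06 of each other.

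The E2Fs that repress without pocket proteins were lower where they passed. E2f6, which acts with Polycomb-type complexes, read 12.86 and 12.86 in Pak1-/- cells against 13.33 and 13.39 in Pak1+/+ cells (A_52_P270164, named for transcript variant 1, mm9 chromosome 12, 16833463 to 16833522). The difference was -0.50 (SE 0.07, adjusted p = 0.0044), or 1.42-fold. Of the 9 genes and unnamed transcripts tested within 500 kb of E2f6, 6 were lower and 0 higher in limma (8 and 0 at an unadjusted p under 0.05), with a median of -0.50, beside 28.2% of all genes lower. The part of chromosomal position was not tested. E2f7, an atypical E2F that binds DNA without a DP partner and shuts off E2F targets late in S phase, had 2 probes, both lower on average, of which 1 passed the threshold. The brighter (A_55_P2062598, mm9 chromosome 10, 110224331 to 110224390) read 11.53 and 11.51 against 11.85 and 11.96, a difference of -0.38 (SE 0.08, adjusted p = 0.013). The other (A_55_P2020894, chromosome 10, 110219255 to 110219314) read 9.06 and 8.87 against 9.06 and 9.16, a difference of -0.15 (95% interval -0.40 to 0.11, adjusted p = 0.26). The call of the brighter E2f7 probe was lost without Pak1-/- replicate 1 (-0.39, adjusted p = 0.050), without Pak1-/- replicate 2 (-0.37, adjusted p = 0.052) and without Pak1+/+ replicate 2 (-0.33, adjusted p = 0.077).

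**Figure D3:**
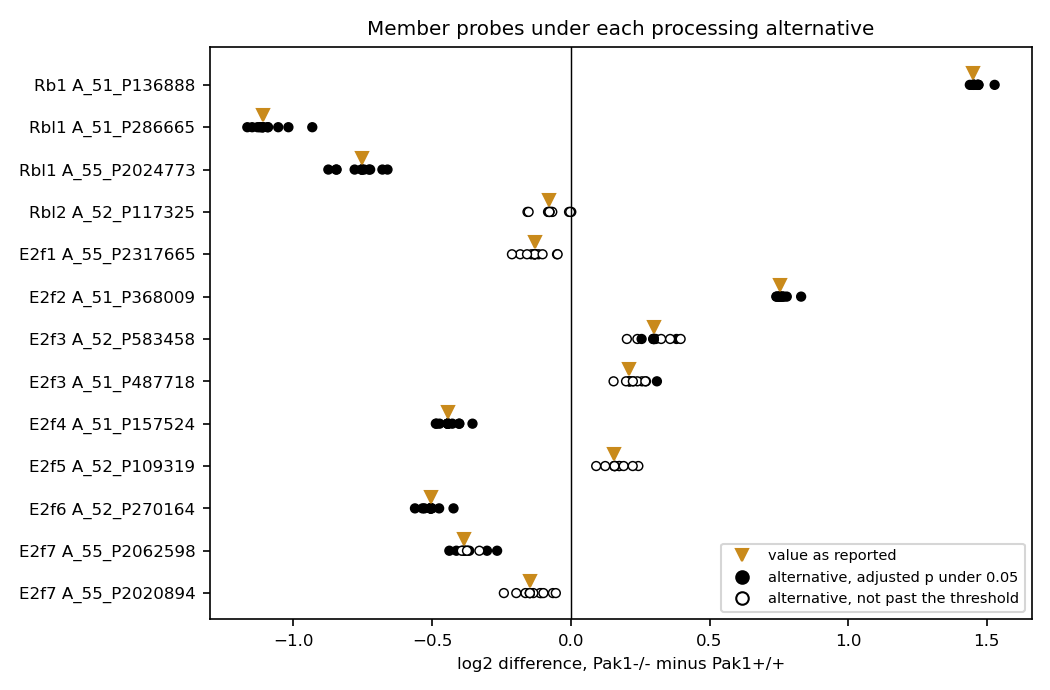
Log2 difference (Pak1-/- minus Pak1+/+) of each member probe as reported (triangles) and under the other normalizations, filters and fits and without each array in turn (circles, filled where the adjusted p was under 0.05). All circles of Rb1, E2f2, both Rbl1 probes, E2f4 and E2f6 are filled and on the side of the reported value, those of both E2f3 probes and the brighter E2f7 probe are of both kinds, and those of the other E2f7 probe are open.

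The genes around the family were then counted in the same fit, from lists of general knowledge that were written with earlier results of these data known, and each count stands beside 28.2% of all genes lower and 22.8% higher. Of the partners, E2f8, the other atypical E2F, read 11.23 and 11.27 in Pak1-/- cells against 12.86 and 12.74, and fell by 1.55 (SE 0.08, adjusted p = 0.00033), a larger fall than that of any member. Tfdp1, which encodes the main DP partner, fell by 0.80 (SE 0.10, adjusted p = 0.0033), and its other probe also was lower. Tfdp2 differed by 0.24 without passing (adjusted p = 0.076), while its dimmer probe rose by 0.22 (adjusted p = 0.047).

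The cyclins and kinases that phosphorylate pocket proteins were lower where they passed. Of 7 tested, 4 (57.1%) fell and 0 rose in limma (0 also at an unadjusted p under 0.05), beside 28.2% lower and 51% called of all genes. Cyclin D1 (Ccnd1), the partner of Cdk4 and Cdk6, fell by 1.34 (adjusted p = 0.00069), Cdk2 by 0.90 (adjusted p = 0.00090), Cdk6 by 0.58 (adjusted p = 0.0060) and cyclin A2 (Ccna2) by 0.52 (adjusted p = 0.016). Ccnd3, Cdk4 and Ccne1 differed by -0.01, -0.01 and -0.04 and did not pass. The dimmer Cdk4 probes differed by -0.27 (adjusted p = 0.058 in limma) and -0.16 (adjusted p = 0.14) and did not pass either. The dimmer Ccne1 probe disagreed with the brighter one, reading 8.94 and 8.96 in Pak1-/- cells against 9.59 and 9.51, and fell by 0.60 (adjusted p = 0.0029). Ccnd2 and Ccne2 were well above background on none of the 4 arrays.

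The CDK inhibitors, which keep pocket proteins in their active form, included 2 genes that were dim in Pak1-/- cells. Cdkn2b, which encodes p15, read 13.11 and 13.28 in Pak1+/+ cells and was not well above background on either Pak1-/- array, at least 95.5-fold lower (adjusted p = 4.2e-05). Cdkn2a, the gene of p16 and Arf, was likewise at least 26.0-fold lower (adjusted p = 6.2e-05). The other Cdkn2a probe differed far less, with 8.07 and 8.29 in Pak1+/+ cells against 6.21 and 6.22, again dim, in Pak1-/- cells. The other Cdkn2b probe read 11.39 and 11.54 against 6.43 and 6.32, the latter also dim. The bound takes the lowest signal well above background on each dim array as the level there. Both genes passed the filter on dim probes only through the Pak1+/+ arrays, so that they had to differ, and they are not counted with the others. Of the 4 inhibitors measured in both groups, Cdkn1b (p27) fell by 0.42 (adjusted p = 0.019; its dimmer probe differed by -0.37, adjusted p = 0.44) and Cdkn2d by 0.52 (adjusted p = 0.011), whereas Cdkn1a (p21) and Cdkn2c differed by 0.24 and 0.20 and did not pass, so that 2 of these 4 were lower and 0 higher in limma (0 at an unadjusted p under 0.05). Cdkn1c was well above background on 1 array and was not tested.

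The MuvB proteins and the factors that bind them split. Foxm1 and Mybl2 (B-Myb), which switch MuvB from repression to activation of mitotic genes, fell by 1.32 (adjusted p = 0.00043) and 0.90 (adjusted p = 0.0010). Lin54, the subunit that contacts DNA, fell by 1.04 (adjusted p = 0.0010), Lin52 by 0.46 (adjusted p = 0.011) and Lin9 by 0.40 (adjusted p = 0.021). The dimmer Lin9 probe (-0.26, adjusted p = 0.12) and 1 of the other 2 Lin52 probes (-0.21, adjusted p = 0.054) did not pass. Lin37 rose by 0.31 (adjusted p = 0.020) and Rbbp4, a histone chaperone of several complexes, by 0.58 (adjusted p = 0.012). So 5 of 7 were lower and 2 higher, counts that were 3 lower without Pak1+/+ replicate 1 and 1 higher without Pak1-/- replicate 1, Pak1-/- replicate 2 or Pak1+/+ replicate 1, and 0 higher without Pak1+/+ replicate 2.

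The genes that E2Fs switch on at the G1/S border fell nearly together. Of 29 tested, 27 (93.1%) were lower and 0 higher in limma (28 and 0 at an unadjusted p under 0.05), against 28.2% of all genes lower, with a median of -1.11 log2 against -0.05 over all genes. The largest falls were those of Rrm2, a ribonucleotide reductase subunit (-1.84, SE 0.10, adjusted p = 0.00040), Hells, a chromatin remodeller (-1.47), Gins1, a part of the replicative helicase (-1.37), and Prim1, the primase subunit (-1.33). Mcm10 (-0.21, adjusted p = 0.051) and the brighter Ccne1 probe did not pass, and Ccne2 was dim. The count was 25 to 27 when 1 array was left out. The strict E2F site was present in 38.5% of the 26 promoter windows at hand for these known E2F targets, against 0.813% of all.

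The mitotic genes bound by DREAM and MuvB were also mostly lower, 17 of 24 tested (70.8%), with a median of -0.65 and 0 higher in limma (1 at an unadjusted p under 0.05). Cdc25c (-1.25), Nek2 (-1.11), Kif23 (-1.09) and Cdk1 (-1.08), a phosphatase, 2 kinases and a motor of cell division, fell most. Cdc20 and Cenpe differed by 0.42 (adjusted p = 0.080) and 0.13 (adjusted p = 0.24). The Pak1-/- arrays stood apart from each other on this list: all 24 genes tested read lower on replicate 1 than on replicate 2, and the summed linear intensity of the list was 322543 and 399413, against 521984 and 523622 in Pak1+/+ cells. Without Pak1-/- replicate 1, 14 were lower, and without Pak1-/- replicate 2, 22. Without Pak1+/+ replicate 1, 11 were lower. The CHR letters TTTGAA or TTCGAA, the element to which Lin54 binds, were in 77.3% of the 22 windows at hand, against 19.2% of all windows.

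**Figure D4:**
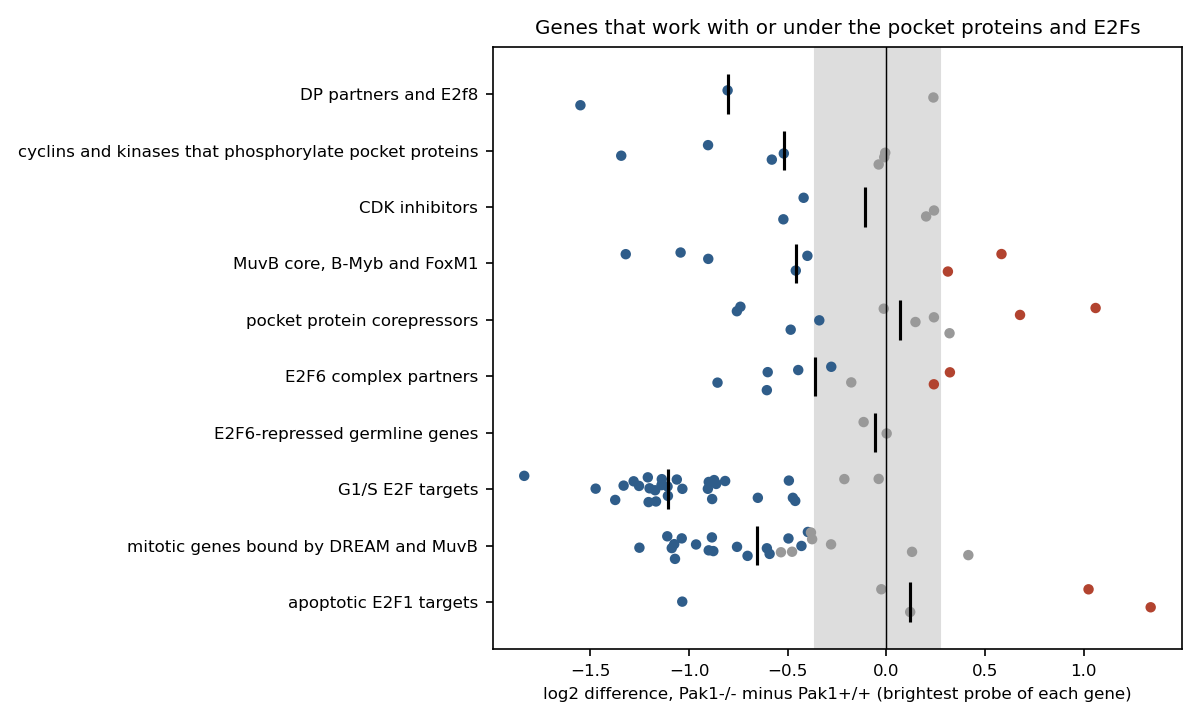
Log2 difference (Pak1-/- minus Pak1+/+) of the brightest probe of each list gene tested, in red where higher and blue where lower at an adjusted p of 0.05 and grey otherwise, with black lines at the list medians and a grey band over the middle 50% of all genes. Cdkn2a and Cdkn2b, which were dim in Pak1-/- cells, are left out of the points and of the line of their list. Nearly all G1/S targets lie left of the band (median -1.11), and the corepressors lie on both sides of 0.

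Genes of the proteins through which the family represses moved in both directions. Of 10 corepressors of pocket proteins, 4 were lower and 2 higher, with a median of 0.07, shares near the 28.2% lower and 22.8% higher of all genes. Hdac1, the deacetylase that RB recruits, rose by 1.06 (SE 0.07, adjusted p = 0.00060) and Arid4b by 0.68 (adjusted p = 0.0030), whereas the methyltransferases Suv39h1 and Dnmt1 fell by 0.76 (adjusted p = 0.0098) and 0.74 (adjusted p = 0.0024). The count of lower corepressors was 1 without Pak1-/- replicate 1 and 2 without Pak1-/- replicate 2 or Pak1+/+ replicate 1. Of 8 partners of E2f6, 5 were lower and 2 higher. Pcgf6, the subunit that defines this Polycomb complex, fell by 0.86 (adjusted p = 0.0011), Cbx3 by 0.61 (adjusted p = 0.0024), L3mbtl2 by 0.60 (adjusted p = 0.014) and Rybp by 0.45 (adjusted p = 0.0063). The ubiquitin ligases Ring1 and Rnf2 rose by 0.32 (adjusted p = 0.016) and 0.24 (adjusted p = 0.043), calls of which at most 1 held in any fit without 1 array, while 3 partners were lower without Pak1-/- replicate 1 or Pak1+/+ replicate 1.

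The germline genes that E2f6 keeps silent in body cells gave 0 calls in limma, also at an unadjusted p under 0.05. Stag3 and Smc1b were well above background on no array and Slc25a31 on 1, and Tuba3a and Tuba3b differed by 0.00 and -0.12 (adjusted p = 0.99 and 0.33, limma). Of 5 apoptotic genes that E2f1 can induce, 1 was lower and 2 were higher. Pmaip1 (Noxa), a BH3-only gene, fell by 1.03 (adjusted p = 0.0075), while Bbc3 (Puma) and Bcl2l11 (Bim), both killers of the same kind, rose by 1.34 (adjusted p = 0.00033) and 1.03 (adjusted p = 0.0015).

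Markers of other cells were read beside these results. The summed linear intensity of 7 mammary epithelial markers was 993425 to 1009141 in Pak1-/- cells and 728576 to 731325 in Pak1+/+ cells, with 5 higher and 0 lower in limma (1 lower at an unadjusted p under 0.05). Krt14, a keratin of basal cells, showed the largest shift of these markers, with 15.93 and 15.89 in Pak1-/- cells against 13.05 and 13.10 (2.83 log2 higher, adjusted p = 7.7e-05), and Cdh1 rose by 1.19 (adjusted p = 0.0012), Krt8 by 0.57, Krt5 by 0.50 and Krt18 by 0.27. That of 6 fibroblast markers was 1211 to 1372 against 1004 to 1051, that of 6 leukocyte markers 5695 to 5994 against 5021 to 5952, and that of 4 endothelial markers 9921 to 10302 against 8989 to 10803. Col1a1 was the 1 fibroblast marker that passed, and it rose by 1.12 (adjusted p = 0.0051 in limma). The leukocyte markers Ptprc and Adgre1 were lower, at -0.45 and -1.05. The part of cell composition in the members' differences was not tested.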

How the data were processed

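Total RNA of 4 cell samples was hybridised to 1-colour (Cy3) Agilent mouse arrays. As deposited, the scanner files give unnormalized spot intensities on a linear scale, made with Feature Extraction 9.5.3.1 (9.5 per the submitters' processing notes) with mm9 probe positions. The authors also deposited a log2 table, by their methods normexp corrected and quantile normalized, used as an alternative. It had values in 24008 of 39485 rows.

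Here normexp (offset 50) was run on all spots in limma 3.58.1 (R 4.3.3), controls were left out, log2 values were quantile normalized and the spots of a probe averaged. The filter kept 27229 probes (69.1%) that rose well above background on 2 or more arrays of the 4. The moderated test of limma (lmFit, then eBayes; two-sided) had genotype as its only term, with Benjamini-Hochberg adjustment over the probes kept and a threshold of 0.05. The offset understates changes of dim probes. The number of arrays limits the precision. An exact permutation test of 2 against 2 cannot go below 0.333. The brightest probe stood for a gene, with names matched to RefSeq by accession for 26055 of 32334 probes with one.

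All members and their probes were named, every gene of the partner, cyclin, inhibitor and MuvB lists, and of other lists the 4 largest changes past the threshold with the exceptions in direction. Members and lists were chosen with earlier results of these data known. Protein sequences were not used here, and 2 genes of the lists are not reported here.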

Additional observations from a re-analysis of the deposited data

How the results depend on the processing

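Rb1, E2f2, both Rbl1 probes, E2f4 and E2f6 kept their direction and an adjusted p under 0.05 under all other backgrounds, normalizations and filters, in the authors' table, with the replicate block and without each array in turn. A 2-fold minimum left 1 member gene lower (Rbl1, by 1 probe) and 1 higher (Rb1), and cyclic loess gave 4 member probes higher in place of 2. The count of all probes called, 14132, went to 8878 with the threshold at 0.01, to 3413 with the 2-fold minimum, and to 10307 to 12164 without 1 array. Leaving out arrays, where the lone sample is assumed to vary like the other group, gave 3 to 4 member genes lower and 2 higher. The difference of Rbl2 turned to 0.0016 without Pak1-/- replicate 1 (adjusted p = 0.99), and to -0.16 without Pak1-/- replicate 2, and it passed in no fit. Replicate numbers were shared between groups. The difference between replicates 1 and 2 correlated at -0.03 across probes, so no pairing showed over all probes. This correlation cannot exclude a pairing that touched only part of the probes. With the replicate block, 13211 probes, 4 member genes lower and 3 higher were called, with E2f3 added (0.30, adjusted p = 0.048). Of the counts of list genes, 48 of 300 moved by over 1.5 times, 44 of them counts of 5 or fewer. The mean over probes could not give counts of probes, and the cause of each change was not tested. Only 2 arrays a group limit all intervals, while all member probes were well above background.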
